A study of Mus musculus with 21 samples.

Results

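Growth factor and ERK response genes are described here in mouse cells measured on 21 Affymetrix expression arrays. The genes are Fos, Egr1, Egr2, Ier5, Dusp6, Spry2, Spry4, Etv4, Etv5 and Myc, 10 of 18193 genes on the array. They were taken by symbol, through every probe set whose platform annotation gives a single symbol, which gave 20 of 34945 such probe sets. The study compared haploid and diploid embryonic stem (ES) cells with fibroblasts and male germ cells, with 3 arrays in each of 7 groups. Androgenetic haploid ES (ahES) cells, which carry only a paternal set of chromosomes, came from the lines AH129-5, AH129-N1 and AH129-NC1. Diploid ES cells came from the lines CS1-1 and R1. Round sperm, haploid cells of the male germline, were taken fresh from testis, and mouse embryonic fibroblasts (MEF) were grown in DMEM with serum. The genetic background was 129 Sv for all ES lines and round sperm and CD1 for MEF. The medium of all ES lines was N2B27 plus 2i and LIF. By the labels, flow sorting for haploid G0/G1 cells preceded RNA extraction of ahES cells and round sperm, and none is given for the diploid lines or MEF, so that sorting, ploidy and parental origin cannot be told apart. Each line is a single line. The labels call the arrays of a group biological replicates without naming separate cultures or animals, so the p-values measure the spread between these arrays, which may be technical.

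ERK is the last kinase of a cascade in which growth factor receptors activate RAS, RAF and MEK in turn. Its activation switches on immediate early genes such as Fos, Egr1 and Egr2, which need no new protein for their induction, and then feedback inhibitors such as Dusp6, Spry2 and Spry4. The 2i medium holds an inhibitor of MEK and an inhibitor of the kinase GSK3, and in mouse ES cells FGF4 is a known source of ERK activity. Immediate early genes also respond to serum, stress and handling of cells.

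The promoter windows of Fos and Egr2, the members with the largest falls in ahES cells, and of Ier5, the member that rose, are shown to place the motifs searched. The RefSeq table (GRCm38.p6) held windows for 6 of the 10 members: Fos, Egr2, Ier5, Dusp6, Spry2 and Etv5. Each window runs 5′ to 3′ on the gene's strand across an annotated start site, 300 bases in all. Capitals mark matches, on either strand, to the CArG box bound by SRF, to TGACG, the core of the site bound by CREB, to CGGAAG, bound by ETS factors, to CACGTG, bound by MYC and its partners, and to GCGTGGG, bound by EGR factors.
Fos, chr12:85473640-85473939, plus strand: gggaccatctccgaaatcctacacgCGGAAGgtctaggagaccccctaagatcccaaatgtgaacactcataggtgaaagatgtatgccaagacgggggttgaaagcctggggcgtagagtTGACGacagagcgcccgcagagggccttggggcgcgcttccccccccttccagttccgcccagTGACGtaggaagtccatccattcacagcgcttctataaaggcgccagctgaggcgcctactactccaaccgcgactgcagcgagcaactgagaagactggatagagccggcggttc
Egr2, chr10:67537619-67537918, plus strand: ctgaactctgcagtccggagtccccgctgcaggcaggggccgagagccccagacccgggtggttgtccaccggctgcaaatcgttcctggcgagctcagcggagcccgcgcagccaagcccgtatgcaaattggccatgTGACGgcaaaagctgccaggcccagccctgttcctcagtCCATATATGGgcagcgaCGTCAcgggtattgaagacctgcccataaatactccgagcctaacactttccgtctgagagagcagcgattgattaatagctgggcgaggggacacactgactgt
Ier5, chr1:155099587-155099886, minus strand: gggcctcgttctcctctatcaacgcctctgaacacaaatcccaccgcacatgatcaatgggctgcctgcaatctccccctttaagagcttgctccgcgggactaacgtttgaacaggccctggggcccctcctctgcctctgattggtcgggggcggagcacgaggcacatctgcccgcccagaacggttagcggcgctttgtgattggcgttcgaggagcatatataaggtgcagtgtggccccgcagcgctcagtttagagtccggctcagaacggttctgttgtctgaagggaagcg
The Fos window held CGGAAG at -225 and TGACG at -129 and -66, counted from the start site to the first base of the match. The Egr2 window held a CArG box at -72 and TGACG at -111 and -55, and the Ier5 window held none of the motifs searched. CArG boxes lay in 4 of 5 Egr2 windows, which overlap in part, and in no other member window of the table. Among all 32851 windows of this length, 1.63% held a CArG box, 20.8% TGACG, 16.9% CGGAAG, 7.15% CACGTG and 5.04% GCGTGGG. Beyond Fos, Egr2 and Ier5, CGGAAG lay in the Dusp6 window at -62. These matches describe letters in a window and are not shown to be bound sites.

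Levels are given as log2(signal + offset) of the deposited MAS5 signals, where 1 unit is a factor of 2, with 1 probe set per gene. A gene passed a comparison at a Benjamini-Hochberg adjusted p under 0.05 over all genes tested, with limma, and a difference of at least 2-fold. Differences are log2 values ± SE. A level at or below the 40th percentile of a group's arrays is called near background, and folds against it are lower bounds.

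The closest array to each of the 21 came from the same group. The summed signal of 8 ES cell markers was 89470 to 110716 in the ES lines, 1118 to 1250 in round sperm and 220 to 266 in MEF. That of 10 spermatid markers was 144145 to 210406 in round sperm and at most 192 elsewhere, and 7 spermatocyte markers summed to 19271 to 20881 in round sperm. The 12 fibroblast markers differed between ES lines: their summed signal was 24477 to 29149 in AH129-5, 21838 to 26559 in AH129-N1, 20755 to 21024 in AH129-NC1, 2440 to 3096 in CS1-1 and 27815 to 28709 in R1, against 151648 to 155583 in MEF. In bulk samples, fewer cells of a type and less RNA per cell cannot be told apart. The log2 difference between the 3' and 5' probe sets of Gapdh, a sign of RNA quality, was 0.37 to 0.70 in round sperm, -0.35 to -0.09 in the ES lines and -0.23 to -0.16 in MEF. That of Actb was 0.50 to 1.00 in round sperm, which overlapped 0.45 to 0.63 in the ES lines, and 0.28 to 0.39 in MEF.

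**Figure D1:**
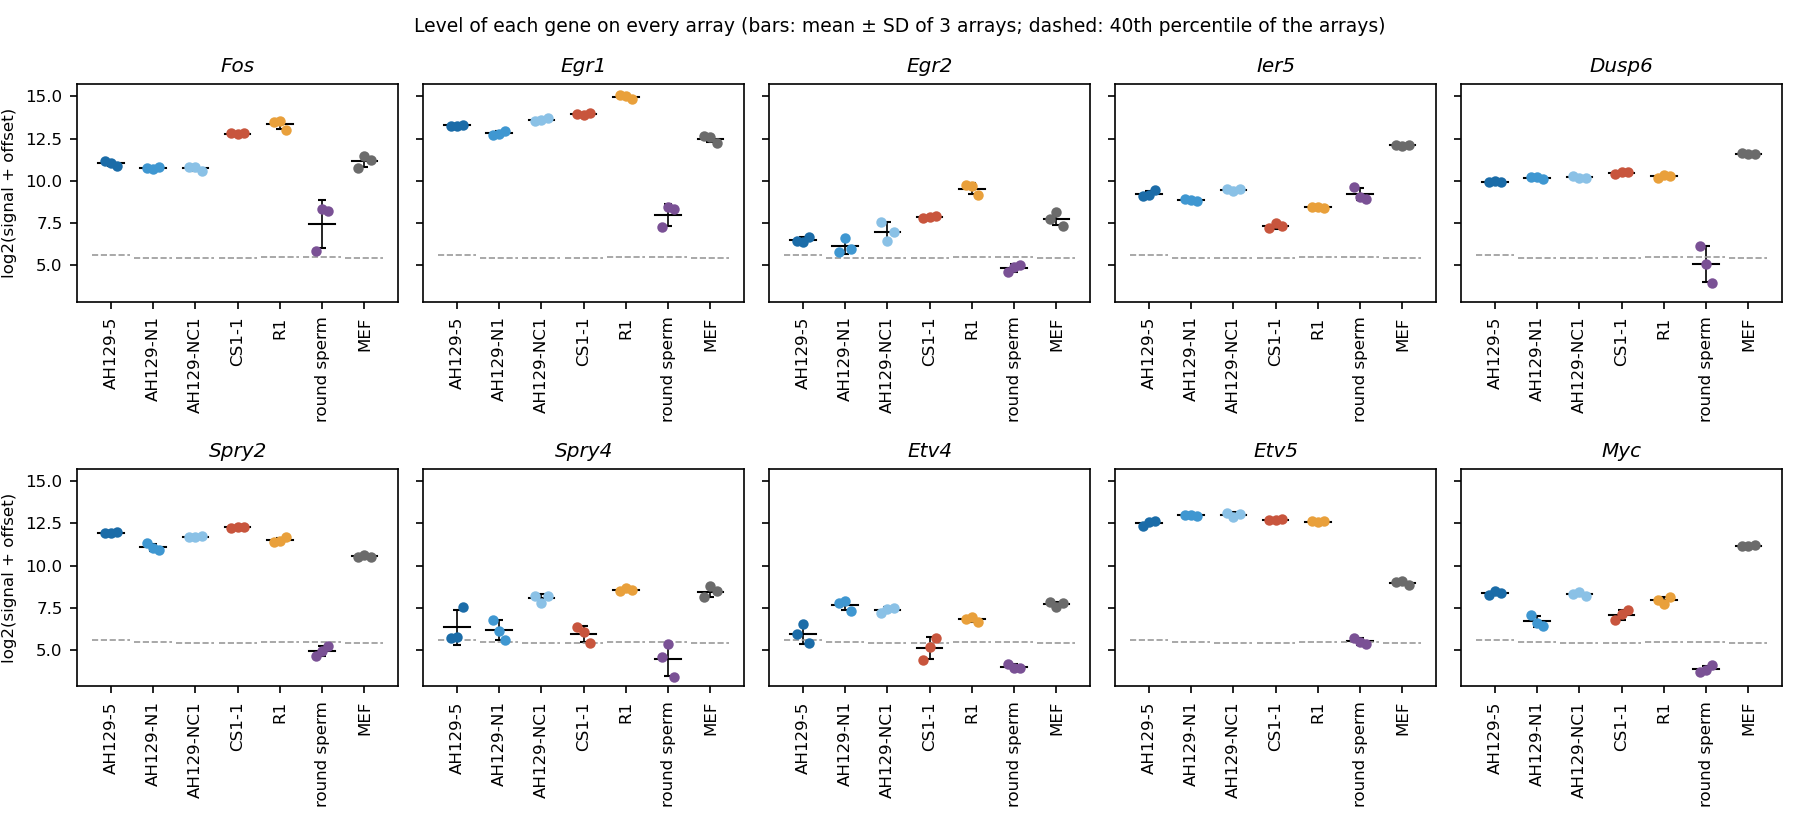
Level of the 10 genes on every array, as log2(signal + offset), in 7 groups of 3 arrays; bars show mean ± SD and dashed lines the mean 40th percentile of the arrays of a group. Fos lies between 10.59 and 11.19 on the ahES arrays and between 12.75 and 13.53 on the diploid ES arrays, and 6 of the genes are near background in round sperm.

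Haploid and diploid ES cells were compared first, with the line as a random block. Fos, Egr1 and Egr2 were lower in ahES cells and Ier5 was higher, and the other 6 genes did not pass. The 4 of 10 genes that passed stand beside 4.35% of all 12891 genes tested. The members were chosen with earlier results of these data known, so here and below such shares are description and no test of the set. In those 4 genes no ahES array overlapped a diploid ES array, and in the other 6 the ranges overlapped. How many of all genes tested had ranges apart was not counted, so this separation adds nothing to the calls.

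Fos encodes a subunit of the AP-1 transcription factor. Its level was 11.19, 11.03 and 10.89 on AH129-5 arrays, 10.78, 10.69 and 10.84 on AH129-N1 arrays and 10.80, 10.82 and 10.59 on AH129-NC1 arrays, against 12.81, 12.75 and 12.81 on CS1-1 arrays and 13.49, 13.53 and 13.01 on R1 arrays. The 9 haploid arrays lay together and below every diploid array. Fos fell by 2.22 ± 0.20 in ahES cells relative to diploid ES cells, a 4.66-fold difference (adjusted p = 3.28e-07). It was the member with the smallest adjusted p in this comparison.

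Egr1 is a zinc finger transcription factor induced within minutes of ERK activation. It had 13.26, 13.26 and 13.33 in AH129-5, 12.73, 12.75 and 12.95 in AH129-N1 and 13.52, 13.61 and 13.68 in AH129-NC1, against 13.92, 13.90 and 14.00 in CS1-1 and 15.08, 15.03 and 14.83 in R1. The gap between AH129-NC1 and CS1-1 was small beside the gap between CS1-1 and R1. Egr1 fell by 1.23 ± 0.24 in ahES cells (adjusted p = 0.00238).

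Egr2, a related zinc finger factor, scattered more between arrays. It had 6.44, 6.38 and 6.71 in AH129-5, 5.78, 6.64 and 5.99 in AH129-N1 and 7.55, 6.45 and 7.01 in AH129-NC1, against 7.79, 7.86 and 7.91 in CS1-1 and 9.73, 9.71 and 9.16 in R1. R1 stood above all other ES lines. Egr2 fell by 2.14 ± 0.50 (adjusted p = 0.00619), and its other probe set, tested among all probe sets, fell by 2.12 ± 0.63 (adjusted p = 0.0374).

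Ier5 is an immediate early gene whose protein takes part in the heat shock response. It moved the other way, with 9.10, 9.18 and 9.43 in AH129-5, 8.92, 8.84 and 8.81 in AH129-N1 and 9.50, 9.42 and 9.54 in AH129-NC1, against 7.20, 7.53 and 7.31 in CS1-1 and 8.48, 8.47 and 8.38 in R1. CS1-1 was the lowest line and R1 lay between it and the haploid lines. Ier5 rose by 1.30 ± 0.26 in ahES cells (adjusted p = 0.00146). Fibroblast markers lay above 0 in this comparison for 11 of 12 genes, of which 2 passed, with a median of 1.21, and their part was not tested. Its other 2 probe sets were near background in ES lines and were not tested there, and with the mean over its 3 probe sets the difference was 0.52 ± 0.38 (adjusted p = 0.456).

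These calls rest on few lines. With 1 mean per line, 1 of the 4 genes passed, Fos. Without R1, 2 passed, Fos and Ier5, with Egr1 at -0.71 ± 0.20 and Egr2 at -1.31 ± 0.51, and without CS1-1, 3 passed, with Ier5 at 0.75 ± 0.23.

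**Figure D2:**
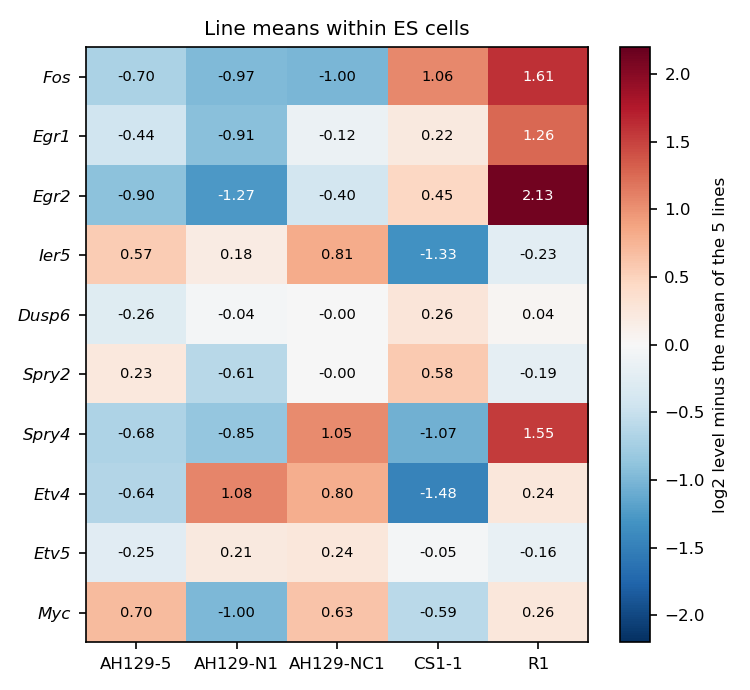
Mean level of each gene in the 5 ES lines minus the mean of the 5 lines, in log2 units, with red above and blue below that mean. R1 is 2.13 above for Egr2 and 1.55 above for Spry4, CS1-1 is 1.48 below for Etv4 and 1.33 below for Ier5, and Dusp6 and Etv5 stay within 0.26 of their means.

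The feedback inhibitors did not pass between ahES and diploid ES cells. Dusp6, a phosphatase that inactivates ERK, had means of 9.96, 10.17 and 10.22 in AH129-5, AH129-N1 and AH129-NC1, against 10.48 in CS1-1 and 10.26 in R1, and differed by -0.26 ± 0.13 (adjusted p = 0.234). Spry2, an inhibitor of receptor signalling, had means of 11.93, 11.09 and 11.70 in the same haploid lines, against 12.28 in CS1-1 and 11.51 in R1, a difference of -0.32 ± 0.22 (adjusted p = 0.43). Spry4, another Sprouty inhibitor, varied most between arrays of a line, with an SD over arrays within a line of 0.59.

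Spry4 had 5.73, 5.75 and 7.55 in AH129-5, 6.78, 6.12 and 5.63 in AH129-N1 and 8.21, 7.79 and 8.22 in AH129-NC1, against 6.37, 6.09 and 5.42 in CS1-1 and 8.50, 8.65 and 8.56 in R1. High and low lines were found in both kinds of ES cell, and 1 AH129-5 array lay apart from the other two of its line. The difference of ahES from diploid ES cells was -0.40 ± 0.87 (adjusted p = 0.859).

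Etv4 and Etv5 are ETS transcription factors of the PEA3 group, which FGF signalling induces. Etv4 had 5.94, 6.52 and 5.40 in AH129-5, 7.76, 7.91 and 7.34 in AH129-N1 and 7.23, 7.46 and 7.48 in AH129-NC1, against 4.43, 5.19 and 5.73 in CS1-1 and 6.86, 6.99 and 6.67 in R1. It was near background in CS1-1, and AH129-5 overlapped that line. The difference between the kinds was 1.03 ± 0.61 (adjusted p = 0.336). Etv5 was high in all 5 lines, with means of 12.52 to 13.01 in ahES lines, against 12.72 in CS1-1 and 12.60 in R1, and differed by 0.17 ± 0.14 (adjusted p = 0.51).

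Myc, a transcription factor of cell growth, had 8.28, 8.51 and 8.39 in AH129-5, 7.06, 6.61 and 6.42 in AH129-N1 and 8.33, 8.43 and 8.21 in AH129-NC1, against 6.78, 7.15 and 7.37 in CS1-1 and 7.96, 7.74 and 8.14 in R1. AH129-N1 and CS1-1 formed the low lines, 1 of each kind. The difference of the kinds was 0.28 ± 0.42 (adjusted p = 0.777).

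The span of the 5 line means was widest for Egr2, at 3.39, followed by 2.61 for Spry4 and for Fos, 2.55 for Etv4, 2.17 for Egr1, 2.14 for Ier5, 1.70 for Myc and 1.19 for Spry2. It was 0.53 for Dusp6 and 0.49 for Etv5, against a median of 0.742 over the 12891 genes tested.

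The diploid lines were then taken singly, with the spread between arrays within lines as the error. Both comparisons share the ahES arrays. In ahES cells minus CS1-1, 4 of 10 genes passed beside 13.6% of all genes tested: Ier5 rose by 1.85 ± 0.09 and Etv4 by 1.89 ± 0.25, at least 2.96-fold, while Fos fell by 1.95 ± 0.09 and Egr2 by 1.31 ± 0.20. Of 12 fibroblast markers, 11 were higher in ahES cells than in CS1-1 and none passed between ahES cells and R1, and their part in the rises of Ier5 and Etv4 was not tested. In ahES cells minus R1, 4 passed beside 7.81%, all lower: Egr2 fell by 2.98 ± 0.20, Fos by 2.50 ± 0.09, Egr1 by 1.75 ± 0.05 and Spry4 by 1.71 ± 0.33. Fos and Egr2 thus passed against each diploid line. Egr1 differed from CS1-1 by -0.71 ± 0.05, short of 2-fold, and Ier5 from R1 by 0.75 ± 0.09. Spry4 differed from CS1-1 by 0.91 ± 0.33, the opposite sign to its difference from R1.

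**Figure D3:**
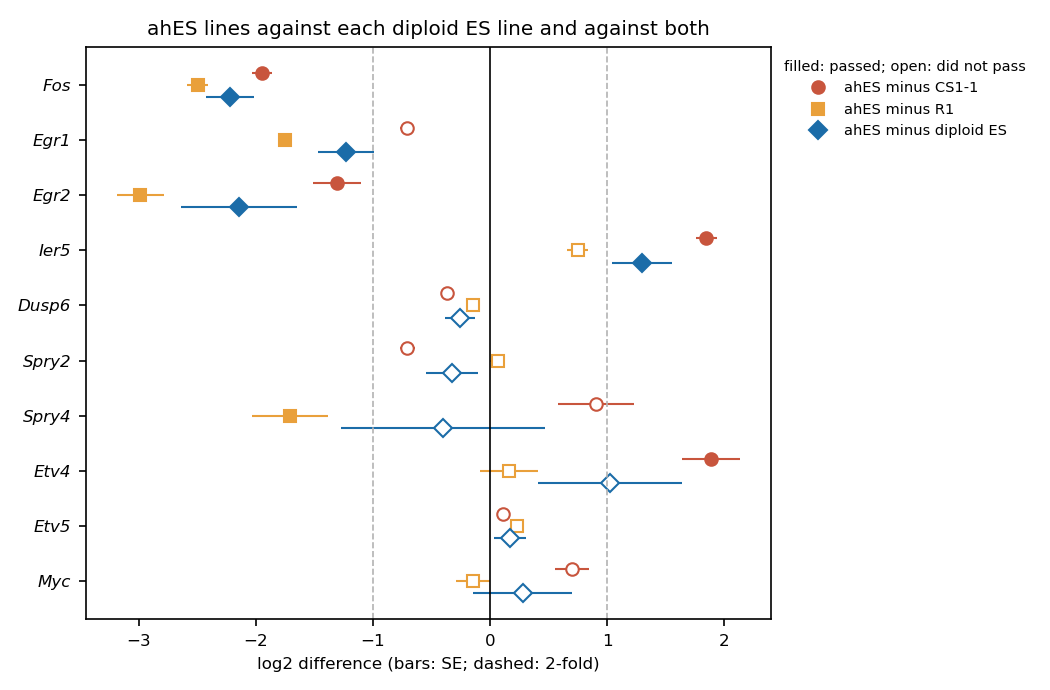
Log2 difference ± SE of ahES cells from CS1-1, from R1 and from both diploid lines for the 10 genes; filled symbols passed, open symbols did not, and dashed lines mark 2-fold. Fos is below -1 in all 3 comparisons, and Spry4 lies at 0.91 against CS1-1 and at -1.71 against R1.

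The diploid lines differed from each other in these genes. In CS1-1 minus R1, 5 of 10 genes passed beside 9.87% of all genes tested, all lower in CS1-1. The ranges of CS1-1 and R1 arrays lay apart for all 10. The share of all genes with ranges apart was not counted, so this separation is description only. Spry4 fell by 2.61 ± 0.40, Etv4 by 1.72 ± 0.30 (at least 2.64-fold), Egr2 by 1.68 ± 0.25, Ier5 by 1.10 ± 0.11 and Egr1 by 1.04 ± 0.06. Of the others, Myc differed by -0.85 ± 0.18, Fos by -0.55 ± 0.11, Spry2 by 0.77 ± 0.08, Dusp6 by 0.22 ± 0.07 and Etv5 by 0.12 ± 0.07, all short of 2-fold. Egr1 was close to the threshold and did not pass without R1 replicate 1, at -0.99. Fibroblast markers were lower in CS1-1 than in R1 for 12 of 12 genes, with a median of -3.15, and their part in these differences was not tested.

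The haploid lines also differed among themselves. In AH129-5 minus AH129-N1, 2 of 10 genes passed beside 5.31% of genes: Myc rose by 1.70 ± 0.18 and Etv4 fell by 1.72 ± 0.30. In AH129-5 minus AH129-NC1, 2 passed beside 5.37%: Spry4 fell by 1.72 ± 0.40 and Etv4 by 1.44 ± 0.30. In AH129-N1 minus AH129-NC1, 2 passed beside 3.11%: Spry4 fell by 1.89 ± 0.40 and Myc by 1.63 ± 0.18. By the probe sets used for the genes, Etv4 was low in AH129-5, Myc low in AH129-N1 and Spry4 high in AH129-NC1, while Fos differed between haploid lines by at most 0.30. Egr1 differed by -0.79 ± 0.06 between AH129-N1 and AH129-NC1.

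Where a gene had more than 1 probe set, the other sets were tested among all probe sets. The second Egr2 set passed in the same direction in CS1-1 minus R1, at -1.44 ± 0.38, but gave other calls elsewhere. It passed in AH129-5 minus AH129-NC1, at -1.24 ± 0.38, where the first set had differed by -0.49, and in AH129-N1 minus AH129-NC1, where it was near background in AH129-N1 and at least 2.67-fold lower. It also passed in diploid ES cells minus MEF, at 1.19 ± 0.36, and not in ahES cells minus MEF, at -0.93 ± 0.34.

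The second Etv4 set was near background in AH129-5 and CS1-1. It passed in CS1-1 minus R1, at least 1.68-fold lower, a bound short of 2-fold. It did not pass in AH129-5 minus AH129-N1 (-0.82 ± 0.31) or in AH129-5 minus AH129-NC1 (-0.86 ± 0.31), nor in ahES minus diploid ES cells (0.27 ± 0.49). In ahES cells this Etv4 set was at 5.81, against 4.91 in CS1-1, at least 1.30-fold higher. Against round sperm, near background at 4.88, it was at least 1.24-fold higher. Both bounds are short of 2-fold. In diploid ES cells it was at 5.55, against 5.95 in MEF, also short of 2-fold. Of 4 Spry4 sets, 3 passed in CS1-1 minus R1: beside the set used for the gene, 1 was near background in CS1-1 and at least 2.56-fold lower and 1 fell by 1.22 ± 0.23, while the fourth was tested nowhere. The set that fell by 1.22 was at 6.53 in ahES cells against 7.15 in R1, short of 2-fold. In AH129-5 (6.44) and AH129-N1 (6.14) it was also short of 2-fold below AH129-NC1 (7.01). The set near background in CS1-1 was near background in AH129-5 and AH129-N1 too. It was at least 1.75-fold and 1.94-fold lower there than in AH129-NC1, bounds short of 2-fold. The second Spry2 set passed in AH129-5 minus AH129-N1 at 1.36 ± 0.15, where the set used for the gene gave 0.84 ± 0.08. The second set was at 7.49 in AH129-N1 and 8.50 in AH129-NC1, against 11.09 and 11.70 for the set used. Between the diploid lines its gap was smaller than that of the set used, with 8.53 in CS1-1 and 8.26 in R1, against 12.28 and 11.51.

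**Figure D4:**
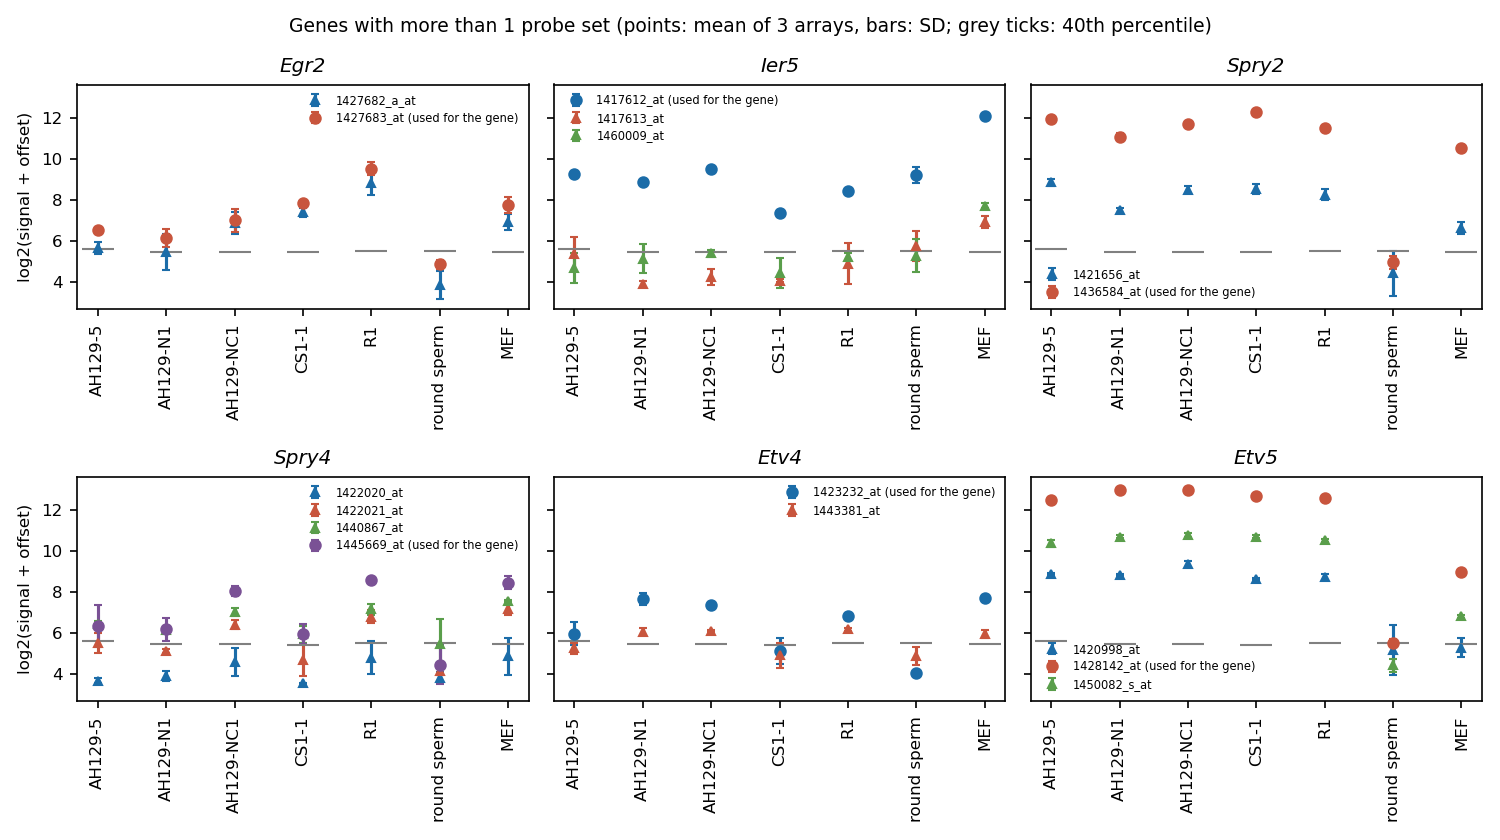
Mean level ± SD over 3 arrays of every probe set of the 6 genes that have more than 1, as log2(signal + offset) in the 7 groups; circles are the sets used for the genes, triangles the others, and grey ticks the 40th percentile. Both Egr2 sets are highest in R1, and 2 of the 3 Ier5 sets lie near the grey ticks in the ES lines.

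Other genes of the pathway were taken as lists without the 10 members. These lists were also chosen with earlier results of these data known, so their shares are description only. Of 29 other immediate early genes tested in ahES minus diploid ES cells, 1 was higher and none lower, 3.45% beside 4.35% of all genes: Ptgs2, the inducible cyclooxygenase, rose by 1.35 ± 0.39. Its line means were 10.74 in AH129-5, 9.82 in AH129-N1 and 10.83 in AH129-NC1, against 8.15 in CS1-1 and 10.06 in R1. The haploid and diploid arrays overlapped for Ptgs2, and ahES cells differed from R1 by 0.40 ± 0.08, short of 2-fold. The median of the list was -0.19, against -0.03 over all genes. None of 19 ERK feedback and target genes passed, none of 6 SRF and ternary complex factors, none of 12 genes of the MYC network and none of 14 dissociation and heat shock genes. Of 20 genes of the ERK cascade 1 passed, a share of 5%, Rps6ka3, an X-linked kinase downstream of ERK, which rose by 1.16 ± 0.16. Of 28 growth factors and receptors 3 passed, a share of 10.7%: the FGF receptor Fgfr2 rose by 1.72 ± 0.33, the KIT ligand Kitl rose by 1.11 ± 0.32 and the EGF receptor ligand Hbegf fell by 1.52 ± 0.26. With 1 mean per line, an alternative chosen after seeing the data, Rps6ka3 (adjusted p = 0.0220) and Fgfr2 (0.0471) passed, and Hbegf (0.0852), Kitl (0.149) and Ptgs2 (0.331) did not.

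Part of the immediate early list was lower against R1, in CS1-1 and in ahES cells, and both comparisons share the R1 arrays. In CS1-1 minus R1, 17 of 29 were lower, none was higher and the rest did not pass, a share of 58.6% beside 9.87% of all genes tested, with a median of -1.12 against 0.02 over all genes. Btg2, an antiproliferative gene, fell by 2.00 ± 0.08, Ptgs2 by 1.91 ± 0.10, the transcription factor Klf6 by 1.23 ± 0.05 and Ier2 by 1.12 ± 0.06. All 12 fibroblast markers were also lower in CS1-1 than in R1, with a median of -3.15, and their part in these falls was not tested. In ahES minus R1, 10 of 29 were lower, none was higher and the rest did not pass, a share of 34.5% beside 7.81%, with a median of -0.64 against -0.03: Zfp36, which destabilises mRNAs, fell by 2.53 ± 0.13, Nab2, a corepressor of EGR factors, by 1.99 ± 0.12, Btg2 by 1.77 ± 0.06 and Ier2 by 1.40 ± 0.05. The Btg2 value averages unlike haploid lines, with means of 8.62 in AH129-5, 10.45 in AH129-N1 and 11.27 in AH129-NC1, against 11.88 in R1. In ahES minus CS1-1, 5 of 28 were higher and none lower, a share of 17.9% beside 13.6% of all genes tested, with a median of 0.26 against -0.03: Ptgs2 rose by 2.31 ± 0.08, Nr4a2, near background in CS1-1, was at least 2.79-fold higher, and Atf3 rose by 1.38 ± 0.09, Rhob by 1.24 ± 0.09 and Gadd45g by 1.19 ± 0.14. Fibroblast markers passed as higher in this comparison for 11 of 12 genes, with a median of 2.59, and their part in these rises was not tested. Of 14 dissociation and heat shock genes, Bag3 and Hspa1b fell in CS1-1 minus R1, by 1.16 ± 0.07 and 1.18 ± 0.16, and their part in the immediate early values was not tested.

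**Figure D5:**
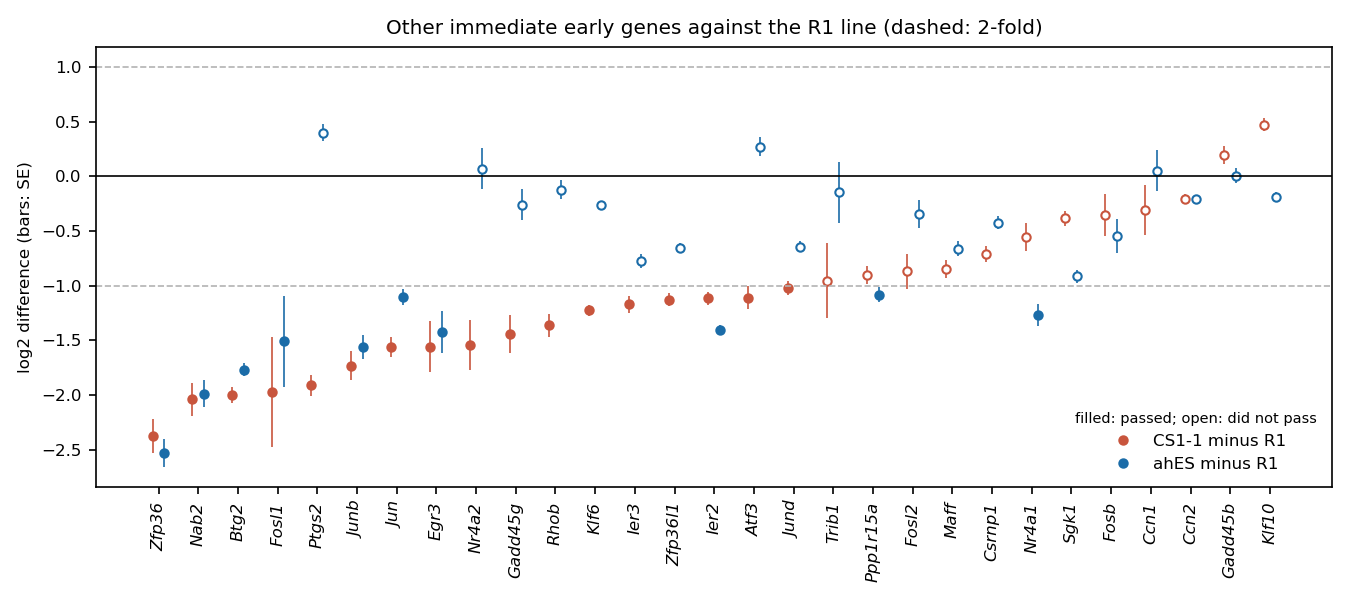
Log2 difference ± SE from R1 of 29 other immediate early genes, in CS1-1 and in the mean of the ahES lines, ordered by the CS1-1 value; filled points passed, open points did not, and dashed lines mark 2-fold. In CS1-1, 17 genes are filled and all lie below -1, and in ahES cells 10 are filled.

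Of 19 ERK feedback and target genes, 3 were lower in CS1-1 than in R1, a share of 15.8% beside 9.87% of all genes: Phlda1 fell by 2.05 ± 0.18, Emp1 by 1.66 ± 0.11 and Lif, the cytokine also supplied in the medium, by 1.29 ± 0.15. The 12 fibroblast markers were all lower in CS1-1 than in R1 as well, and their part in these falls was not tested. In ahES minus R1, 2 of 19 were lower, 10.5% beside 7.81%. Phlda1 fell by 1.93 ± 0.15, and Spred3, near background in ahES cells and with overlapping arrays, was at least 1.48-fold lower, a bound short of 2-fold. In ahES minus CS1-1, 1 of 18 passed, 5.56% beside 13.6%: Emp1 rose by 1.62 ± 0.09, and the part of the fibroblast markers, also higher there, was not tested. None of 20 genes of the ERK cascade passed between the diploid lines.

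Fibroblasts in serum were compared with both kinds of ES cell. In ahES cells minus MEF, 7 of 10 genes passed beside 42.1% of all genes tested, and in diploid ES cells minus MEF 9 of 10 passed beside 44.7%. The 2 comparisons share the MEF arrays. Etv5 was higher in ES cells, at 3.85 ± 0.07 for ahES cells and 3.67 ± 0.08 for diploid ES cells, as was Spry2, at 1.01 ± 0.10 and 1.33 ± 0.10. Myc was lower, at -3.37 ± 0.15 for ahES cells and -3.64 ± 0.16 for diploid ES cells, as were Ier5, at -2.90 ± 0.11 and -4.20 ± 0.12, Dusp6, at -1.49 ± 0.25 and -1.23 ± 0.26, and Spry4, at -1.59 ± 0.37 and -1.19 ± 0.40. The Spry4 values average unlike lines, with means of 5.96 in CS1-1 and 8.57 in R1, against 8.46 in MEF. Haploid means of Spry4 were 6.35 in AH129-5, 6.18 in AH129-N1 and 8.07 in AH129-NC1. Arrays of R1 and of AH129-NC1 overlapped MEF arrays for this gene. MEF arrays had 11.17, 11.14 and 11.20 for Myc and 9.03, 9.06 and 8.87 for Etv5, with every ES array below the first and above the second. Fos did not pass for ahES cells, at -0.30 ± 0.34, and rose by 1.92 ± 0.36 in diploid ES cells. Egr1 differed by 0.74 ± 0.16 for ahES cells and rose by 1.97 ± 0.17 in diploid ES cells, and Egr2 fell by 1.21 ± 0.22 in ahES cells and differed by 0.93 ± 0.24 in diploid ES cells. Etv4 differed by -0.72 ± 0.25 for ahES cells and fell by 1.75 ± 0.26 in diploid ES cells. Spry2 in ahES cells lay at the 2-fold threshold and did not pass without AH129-N1 replicate 1, MEF replicate 1 or MEF replicate 3, and Spry4 in diploid ES cells did not pass without MEF replicate 2.

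Round sperm had low levels of most of these genes. In ahES cells minus round sperm, 9 of 10 genes were higher and passed, beside 73.0% of all genes tested. Etv5 rose by 7.32 ± 0.07 and Egr1 by 5.23 ± 0.16, and Fos rose by 3.39 ± 0.34. Dusp6, Egr2, Etv4, Myc, Spry2 and Spry4 were near background in round sperm: Spry2 was at least 67.1-fold higher in ahES cells, Dusp6 at least 24.5-fold, Myc at least 4.93-fold, Etv4 at least 2.83-fold, Spry4 at least 2.57-fold and Egr2 at least 2.06-fold. Ier5 was the exception. It had 9.66, 9.07 and 8.94 on round sperm arrays, overlapping the ahES arrays, and ahES cells differed from round sperm by -0.03 ± 0.11 (adjusted p = 0.812). Fos had 5.84, 8.34 and 8.19 and Egr1 7.26, 8.43 and 8.31 on round sperm arrays, with replicate 1 the lowest for both. In round sperm minus MEF, all 10 genes were lower and passed, beside 76.0% of genes, with Ier5 at -2.88 ± 0.14. The part of RNA quality, which by Gapdh but not by Actb set round sperm apart from the ES lines, was not tested.

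By the probe sets used for the genes, the order of the 7 groups differed between genes. R1 was highest for Fos, Egr1, Egr2 and Spry4, MEF for Ier5, Dusp6, Etv4 and Myc, CS1-1 for Spry2 and AH129-NC1 for Etv5. Round sperm was lowest for every gene but Ier5, for which CS1-1 was lowest. MEF and AH129-N1 overlapped for Etv4. The other sets of Egr2, Ier5 and Etv5 were highest in the same group as the set used. The other Spry4 sets were highest in MEF, with a set at 7.57 there against 7.15 in R1. The second Etv4 set was highest in R1, at 6.18 against 5.95 in MEF. The second Spry2 set was highest in AH129-5, at 8.85 against 8.53 in CS1-1. For Fos, R1 and CS1-1 lay apart from each other and from MEF, MEF overlapped AH129-5, and AH129-N1 overlapped AH129-NC1. For Spry4, by the set used for the gene, the ranges of R1 and MEF and of MEF and AH129-NC1 overlapped. So did those of AH129-5, AH129-N1 and CS1-1 in that order.

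The genes most like each member over the 5 ES lines were found by the root mean square difference of centred line means, among genes whose line means spanned at least 1 log2 unit. Among members, Fos was closest to Egr2, at 0.47, and Egr1 to Egr2, at 0.49. Dusp6 and Etv5, whose line means spanned only 0.53 and 0.49, were a closer pair, at 0.23, as were Dusp6 and Spry2, at 0.38. Among all genes, Fos was closest to Padi2, at 0.18, Creb3l4, at 0.22, and Unc13b, at 0.23. Ier5 was closest to Serpinb9b, Il6ra and Armcx3, each at 0.12. Spry2 was closest to Klhl10, at 0.026, and Parvb, at 0.036, Etv4 to Tek, at 0.17, Myc to Epsti1, at 0.12, and Spry4 to Id3, at 0.34. Creb3l4 was near background in all 3 haploid lines and Epsti1 in AH129-N1 and CS1-1, so that their levels there are bounds. With 5 points and 4263 candidates for each of these members, close matches describe these lines and no more.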

How the data were processed

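Values were log2 MAS5 signals deposited for 45101 probe sets (MAS5 per the submitters' processing notes, with no version given). The log base was read from the deposited values: the 2% trimmed mean on the linear scale was 500 on each array. No detection calls were used, and 3 arrays per group limit the precision. Signals were returned to the linear scale, an offset of 9.70 signal units (median over arrays of the 20th percentile) was added and log2 was taken. The probe set with the highest mean over arrays stood for a gene. Testing required that, in at least 1 compared line or group, all 3 arrays exceeded their own 40th percentile. limma 3.58.1 (statmod 1.5.0, R 4.3.3) was used with trend and robust moderation and 2-sided tests. ahES minus diploid ES was fitted over 15 ES arrays with the line as a random block (consensus correlation 0.687), other ES comparisons over 5 line means, and the rest over 7 group means. The block assumes 1 correlation for all genes. In simulated data where genes differed in their spread between lines, that fit made more false calls than its nominal rate, so the calls with 1 mean per line are given beside it for members and for list genes that passed. Near-background folds use the 40th percentile in place of the lower values. Genes were named by rule: all members, and of each list up to 4 genes with the smallest adjusted p, or all where 5 or fewer passed. The members and lists were chosen with earlier results of these data known. Alternatives changed the offset, normalization, filter, probe set rule, lines and arrays used.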

Additional observations from a re-analysis of the deposited data

Results flagged for a closer look

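The difference of ahES cells from a diploid line depended on which diploid line was used for 5 of the 10 genes. That count stands beside 9.87% of all genes tested. The test of that dependence is CS1-1 minus R1 itself, since the ahES arrays are shared. The difference from R1 was lower than the difference from CS1-1 by 2.61 for Spry4 (value -2.61), 1.72 for Etv4 (-1.72), 1.68 for Egr2 (-1.68), 1.10 for Ier5 (-1.10) and 1.04 for Egr1 (-1.04), in log2 units. Etv4 was near background in CS1-1, so its fold is only bounded, at 2.64 or more. Fibroblast markers also differed between these lines, and their part was not tested.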

How the results depend on the processing

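No difference that passed changed sign in any alternative. In ahES minus diploid ES, 4 genes passed, against 1 with 1 mean per line (284 genes over all) and 2 without line R1 (1098 genes over all, against 561). Leaving out single arrays kept 4. The count ran from 4 to 5 in ahES minus CS1-1 and in CS1-1 minus R1, stayed at 4 in ahES minus R1, and ran from 6 to 7 in ahES minus MEF and from 9 to 10 in diploid ES minus MEF. With the mean over probe sets Ier5 did not pass in ahES minus diploid ES, ahES minus CS1-1 (0.98) or CS1-1 minus R1 (-0.91). With quantile normalization Egr1 did not pass in CS1-1 minus R1 (-0.91). An offset 4 times as large took Ier5 (-0.98) from that comparison, Egr2 and Spry2 from ahES minus MEF and Spry4 from diploid ES minus MEF. The same offset lowered the genes passing to 1144 from 1736 in ahES minus CS1-1, to 600 from 989 in ahES minus R1, and to 373 from 645, 366 from 655 and 167 from 376 between haploid lines. An offset of 1 took Spry4 from diploid ES minus MEF (-1.29, adjusted p = 0.0653). A filter at the 60th percentile left Etv4 untested in CS1-1 minus R1 and Egr2 untested in ahES minus round sperm. It gave 420 and 219 genes passing in AH129-5 minus AH129-N1 and AH129-N1 minus AH129-NC1. Median centring moved the median of all genes to -0.19 from 0.33 in ahES minus round sperm and to 0.33 from -0.32 in round sperm minus MEF. Arrays with the same replicate number did not deviate together (mean correlation -0.004 over 63 pairs), and a replicate block left the 4 genes of ahES minus diploid ES, changed no other call of a member and gave 524 genes over all.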
